A study of Mus musculus with 7 samples.

Results

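The genes described here are 50 Wnt pathway genes of a mouse wound transcriptome, picked by a rule on gene names from 49164 gene rows with counts. The rule was set with earlier results of these data known. The 50 genes comprise 19 Wnt ligands, 12 receptors (10 Frizzleds with Lrp5 and Lrp6), 10 secreted antagonists (the Dkk and Sfrp genes, Wif1 and Sost), 6 genes that release or amplify the ligands (Rspo1 to Rspo4, Porcn and Wls), and the 3 nuclear factors and targets Tcf7, Lef1 and Axin2. Polyadenylated RNA was sequenced from soft tissue, labelled as muscle with soft callus, beside a 1.5-mm drill hole in the mandible 5 days after the injury. IL17KO mice, which carry the Il17af-/- genotype and so lack interleukins 17A and 17F, gave 3 libraries, and WT littermates gave 4. Both groups had the drill hole, and no unwounded tissue was part of the comparison. No age or strain is stated, and no label says that each library is 1 animal, so the p-values given here reflect only the variation among these libraries, which may be partly technical. The comparison asks which Wnt genes this tissue expresses and whether they differ when both interleukins are missing.

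Wnt proteins are lipid-modified secreted signals. Porcn attaches the lipid, Wls carries the ligand to the cell surface, and Frizzled receptors bind it together with Lrp5 or Lrp6. In the canonical branch this stabilises beta-catenin, which acts with Tcf and Lef factors on targets such as Axin2. Other ligands, Wnt5a and Wnt11 among them, are known mainly for the planar polarity and calcium branches. Secreted frizzled-related proteins and Wif1 bind the ligands themselves, whereas Dkk1 and sclerostin, the product of Sost, bind the Lrp co-receptors. In bone, Wnt signals drive osteoblast formation, and in muscle they act on satellite cells and on fibre growth.

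Total counts ran from 24575664 to 25814761 in IL17KO libraries and from 18539904 to 26271176 in WT libraries. A level of 3 counts, the floor used here, was 0.114 to 0.162 CPM, the unit that relates a gene's counts to the total of its library. All other levels use totals scaled by TMM, a normalization between libraries. Il17a had 0 counts in all 7 libraries, and Il17f had 1, 1 and 0 counts in IL17KO and 0 counts in each WT library, so the targeted genes cannot check the genotype labels. Muscle fibre genes varied widely within both groups, with a summed level over 25 genes of 38728 to 122213 CPM in IL17KO and 19989 to 64408 CPM in WT, and all 25 were detected. All 25 were also estimated higher in IL17KO than in WT, with a median log2 difference of 0.605. Of these, 0 had an unadjusted p under 0.05 in edgeR's quasi-likelihood test. WT replicate 3 and IL17KO replicate 3 stood apart, at opposite ends of the first principal component (50.1% of the variance) and of the muscle level. Fibroblast genes summed to 25051 to 49680 CPM in IL17KO and 30597 to 50761 CPM in WT. Osteoblast and osteocyte genes summed to 2732 to 4241 CPM in IL17KO and 1630 to 4891 CPM in WT. The osteocyte gene Mepe was at 0 in every library and Fgf23 never passed 3 counts. Over the 7 libraries, the osteocyte genes Dmp1 and Phex had 80 to 116 and 6 to 13 counts. The osteoblast genes Sp7 and Ibsp had 37 to 108 and 95 to 1252 counts. The highest level among these was 55.6 CPM, for Ibsp in IL17KO replicate 3. The sums thus came mainly from other listed genes, whose specificity for bone cells was not tested. Cartilage genes summed to 94.5 to 142 CPM in IL17KO and 115 to 301 CPM in WT, highest in WT replicate 3, where Acan, the cartilage proteoglycan, reached 32.7 CPM. Col2a1, the main collagen of cartilage, was scarce, at 0.245 to 0.532 CPM in IL17KO and 0.782 to 1.19 CPM in WT. Epithelial genes summed to 4.47 to 7.81 CPM in IL17KO and 5.61 to 56.0 CPM in WT.

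Of the 19 ligand genes, 12 had enough counts to be tested, and Wnt9a, Wnt5a, Wnt11 and Wnt4 made up most of the ligand RNA. Per kilobase of exon, which allows levels of different genes to be set side by side, Wnt9a averaged 5.00 ± 0.692 in IL17KO and 4.50 ± 0.750 CPM per kb in WT (SD, n = 3 and n = 4). Wnt5a averaged 2.56 ± 0.970 in IL17KO and 3.40 ± 0.700 CPM per kb in WT, and Wnt11 1.20 ± 0.279 in IL17KO and 1.45 ± 0.227 CPM per kb in WT. In all 7 libraries Wnt9a stood above Wnt5a and Wnt5a above Wnt11. Wnt4 averaged 1.86 ± 2.03 CPM per kb in IL17KO and 0.854 ± 0.447 CPM per kb in WT, and its place relative to Wnt11 was not settled, the difference over the 7 libraries being 0.06 ± 1.27 CPM per kb (SD). These 4 genes held 82.5 ± 2.87% of the summed ligand level per kilobase (SD, n = 7), and Wnt9a alone 37.4 ± 2.59%. They were also the 4 ligands with a mean of at least 1 CPM per kb. Wnt5b followed at 0.655 CPM per kb over all libraries, and Wnt16, Wnt7b, Wnt2b, Wnt10b, Wnt2, Wnt6 and Wnt10a lay between 0.143 and 0.268 CPM per kb, with neighbours in that order changing places between libraries.

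The ligands below the filter included Wnt1 and Wnt3a, known as strong activators of beta-catenin. Wnt3a had at most 1 count in any library, Wnt3 at most 2, Wnt8a and Wnt8b at most 1, Wnt1 at most 5 and Wnt9b at most 6, while Wnt7a had 0 counts in all 7. Apart from Wnt1 and Wnt9b, none of these 7 genes passed the floor of 3 counts in any library, so their presence was not detectable at this depth.

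Wnt9a had 14.0, 18.1 and 17.8 CPM in IL17KO replicates 1 to 3, against 13.7, 13.7, 18.7 and 13.7 CPM in WT replicates 1 to 4. The groups overlapped, with WT replicate 3 above all others. Wnt5a had 19.2, 28.0 and 12.9 CPM in IL17KO, against 24.0, 27.0, 34.1 and 21.4 CPM in WT. Its highest library was WT replicate 3 and its lowest IL17KO replicate 3, the 2 libraries with the least and the most muscle RNA. Wnt11 was steadier, at 4.50, 4.15 and 6.30 CPM in IL17KO and 6.99, 4.81, 5.80 and 6.46 CPM in WT. Wnt4 spread over a 13.1-fold range, with 3.97, 1.88 and 17.6 CPM in IL17KO and 2.80, 4.65, 1.34 and 5.53 CPM in WT. IL17KO replicate 3 was the highest, and without it the log2 difference between IL17KO and WT was -0.31 instead of 1.11.

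**Figure D1:**
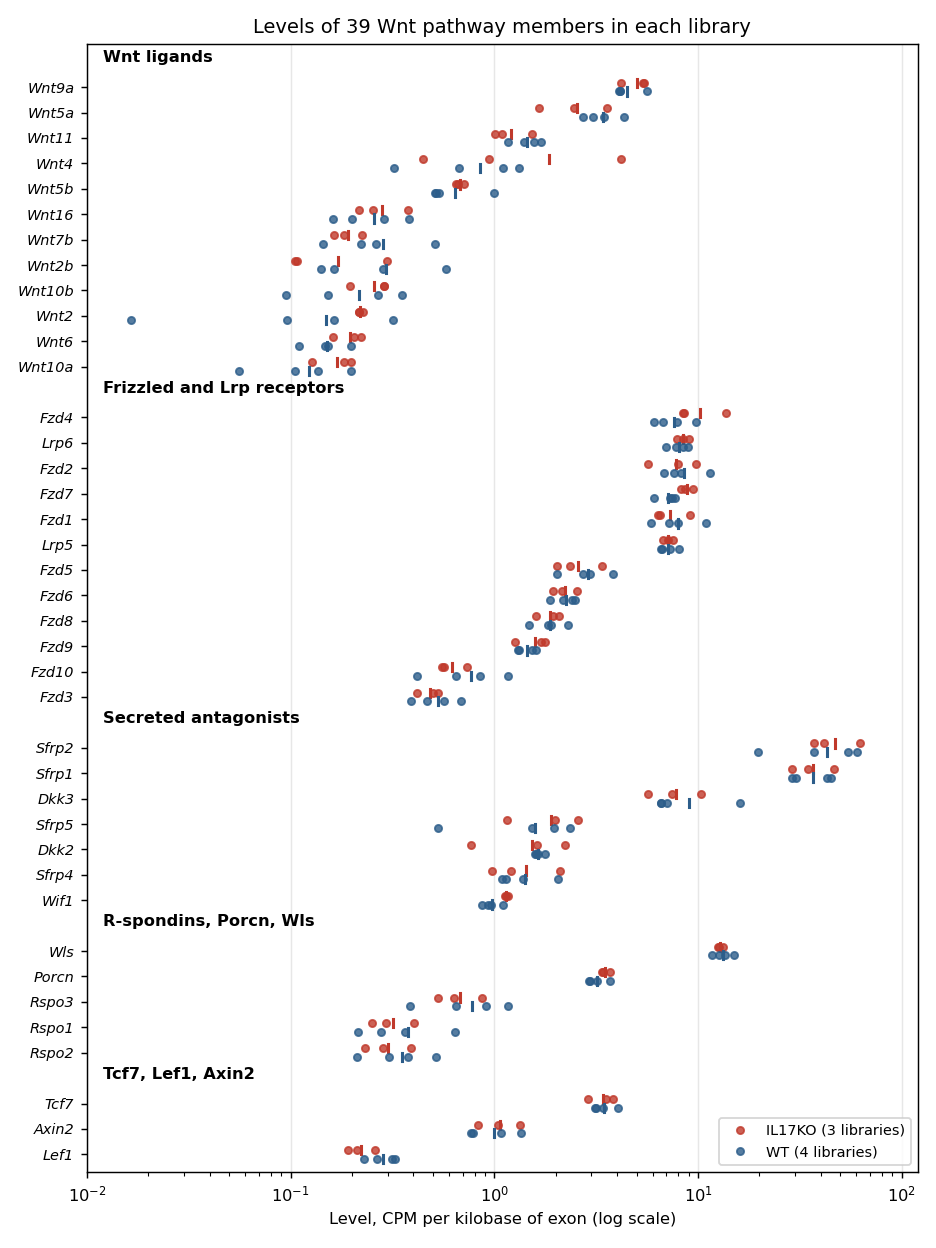
Level of each of the 39 tested members in CPM per kilobase of exon (log axis), 1 point per library, IL17KO in red and WT in blue, ordered by role and mean level, with vertical bars at the group means. With all exons as the length, Sfrp2 and Sfrp1 sit highest, 6 receptors lie close together near 8 CPM per kb, and among ligands Wnt9a leads.

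With all exons as the length, receptor RNA was spread evenly over several genes. Averages over all 7 libraries were 8.74 CPM per kb for Fzd4, 8.23 for Lrp6, 8.22 for Fzd2, 7.84 for Fzd7, 7.71 for Fzd1 and 7.14 for Lrp5, and no neighbours in this order kept their place in more than 5 of 7 libraries. Fzd4, also known as the receptor for norrin in blood vessels, averaged 10.3 ± 3.06 in IL17KO and 7.61 ± 1.60 CPM per kb in WT. Fzd5 came next at 2.76 CPM per kb, below Lrp5 in all 7 libraries. Fzd6, Fzd8 and Fzd9 averaged 2.23, 1.88 and 1.50 CPM per kb, and Fzd10 and Fzd3 0.705 and 0.509 CPM per kb. The place of Lrp6 depends on the length used, because all its exons cover 13672 bases and its longest transcript 9368. For Fzd4, Fzd2, Fzd7 and Fzd1 both lengths are the same. On the longest transcript Lrp6 would thus stand higher beside these Frizzleds. All 10 Frizzled genes and both co-receptors passed the filter.

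The co-receptors were among the least variable members. Lrp6 had 115.6, 124.2 and 108.3 CPM in IL17KO, against 122.1, 95.3, 106.5 and 116.0 CPM in WT. Lrp5 differed by no more than 1.22-fold between its highest and lowest library, and its group means were 7.14 ± 0.405 in IL17KO and 7.15 ± 0.688 CPM per kb in WT. Fzd4 had 57.5, 56.6 and 92.7 CPM in IL17KO, against 45.1, 53.0, 41.0 and 65.4 CPM in WT. Its groups overlapped through WT replicate 4. Fzd2 had 29.3, 35.8 and 20.7 CPM in IL17KO, against 27.9, 25.0, 41.7 and 30.3 CPM in WT, so that IL17KO held the lowest library and WT the highest.

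Secreted antagonists reached the highest levels of the 50 genes. Sfrp2 averaged 47.0 ± 13.6 in IL17KO and 42.9 ± 18.4 CPM per kb in WT, and Sfrp1 36.8 ± 9.07 in IL17KO and 36.9 ± 8.29 CPM per kb in WT. Together they held 84.6 ± 3.23% of the summed antagonist level (SD, n = 7). Dkk3, a Dickkopf relative that is not a typical Lrp blocker, averaged 7.84 ± 2.36 in IL17KO and 9.05 ± 4.63 CPM per kb in WT. Sfrp5, Dkk2, Sfrp4 and Wif1 followed at 1.72, 1.60, 1.42 and 1.05 CPM per kb over all libraries. Sost had at most 2 counts and Dkk1 at most 4 counts in any library, and Dkk4 was at 0 in all 7, so the best-known inhibitors of Lrp5 and Lrp6 did not pass the filter.

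By library, Sfrp2 had 89.7, 134.4 and 79.5 CPM in IL17KO and 42.3, 117.6, 129.7 and 80.1 CPM in WT. The lowest value was WT replicate 1. Sfrp1 had 151.4, 204.2 and 126.5 CPM in IL17KO, against 133.0, 197.4, 187.1 and 127.0 CPM in WT, with full overlap of the groups. Dkk3 had 25.1, 34.8 and 19.1 CPM in IL17KO, against 23.6, 22.2, 53.7 and 22.1 CPM in WT. WT replicate 3 stood far above the other 3 WT libraries.

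Of the genes that release or amplify ligands, Wls averaged 12.8 ± 0.430 in IL17KO and 13.3 ± 1.38 CPM per kb in WT. Taking the longest transcript as the length instead of all exons put the Wls level at 32.3 CPM per kb over all libraries. Porcn, the acyltransferase, averaged 3.50 ± 0.180 in IL17KO and 3.18 ± 0.356 CPM per kb in WT. R-spondins, which raise the amount of Frizzled at the cell surface through the Lgr receptors, were low. Rspo3, Rspo1 and Rspo2 averaged 0.735, 0.350 and 0.331 CPM per kb, and Rspo4 had at most 6 counts. The order of Rspo1 and Rspo2 was not settled, the difference over the 7 libraries being 0.019 ± 0.120 CPM per kb (SD). It also depends on the length, as Rspo2 has 5112 exon bases but 3338 in its longest transcript. Wls had 111.3, 116.9 and 109.7 CPM in IL17KO, against 119.0, 112.0, 132.3 and 103.5 CPM in WT. Porcn had 11.1, 10.1 and 10.3 CPM in IL17KO, against 11.03, 8.81, 8.73 and 9.57 CPM in WT. Rspo3 had 1.64, 2.70 and 1.95 CPM in IL17KO, against 1.20, 1.9995, 3.60 and 2.82 CPM in WT, and its groups overlapped as did those of Wls and Porcn.

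Inside the cell, Tcf7 exceeded Axin2 and Axin2 exceeded Lef1 in all 7 libraries. Tcf7, which codes for TCF1, had 9.28, 9.99 and 7.54 CPM in IL17KO, against 10.7, 8.21, 8.97 and 8.27 CPM in WT. Axin2, a negative feedback target widely read as a sign of beta-catenin activity, had 5.73, 4.58 and 7.37 CPM in IL17KO, against 5.93, 4.32, 4.22 and 7.42 CPM in WT. Lef1 had 1.68, 2.27 and 1.86 CPM in IL17KO, against 2.76, 2.32, 2.01 and 2.86 CPM in WT, where only WT replicate 3 fell inside the IL17KO range. Tcf7 and Lef1 are also T cell genes, and the cells that held their RNA were not resolved here.

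Exons of 9 members (Axin2, Fzd5, Fzd6, Lef1, Rspo3, Sfrp2, Wnt11, Wnt5a and Wnt7b) share bases with a gene on the opposite strand, by 152 to 1233 bases. The library kit was stranded, but the sources do not give the strand setting of the counting, so their counts may hold reads of the partner gene. None of the 50 has a near-identical transcript copy elsewhere.

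No Wnt member passed the test between IL17KO and WT tissue. In edgeR's quasi-likelihood test, 0 of 39 tested members passed an adjusted p of 0.05, against 0.156% of all 15399 genes tested, and the smallest adjusted p among members was 0.987. At an unadjusted p under 0.05 there was 1 member, Fzd7, against 3.04% of all genes. DESeq2 gave 0 member calls, against 0.351% of the same genes, and 1 member at that unadjusted level, again Fzd7, against 3.00%. Limma voom gave 0 member calls, against 0.422%. It gave 5 members at the unadjusted level, against 9.36% of all genes, so the larger count came with a larger share. That fit weights libraries by quality, at 5.31 for IL17KO replicate 1 but 0.624 and 0.487 for IL17KO replicates 2 and 3. Its IL17KO side thus rests mostly on IL17KO replicate 1. Members were divided between 18 higher and 21 lower estimates, with a median log2 fold change of -0.0019, beside 50.6% higher and a median of 0.0026 over all genes. The groups did not overlap for 2 of 39 members, Fzd7 and Wif1, against 3.89% of all genes. In bulk tissue, fewer cells of a type and less RNA per cell cannot be told apart.

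Fzd7, a Frizzled known from muscle satellite cells as a receptor for Wnt7a, had 39.02, 37.6 and 42.9 CPM in IL17KO, against 35.0, 27.6, 33.1 and 33.7 CPM in WT. Every IL17KO library lay above every WT library, yet the log2 difference was small at 0.30 ± 0.12 (SE; 95% interval 0.04 to 0.57; unadjusted p = 0.0304 in edgeR's quasi-likelihood test). Wif1 had 2.82, 2.78 and 2.75 CPM in IL17KO, against 2.11, 2.27, 2.69 and 2.34 CPM in WT, a log2 difference of 0.24 ± 0.18 with an interval of -0.15 to 0.64. Summed levels of satellite cell genes were 1143 to 1318 CPM in IL17KO and 861 to 1272 CPM in WT, and their part in the Fzd7 values was not tested.

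The intervals bound what could have been missed. For 27 of 39 members the whole 95% interval of the log2 difference lay within 1 in either direction. Lrp5 was bounded most closely, at -0.00 ± 0.11 (SE; -0.26 to 0.25), followed by Wls at -0.05 ± 0.12 (-0.32 to 0.22) and Lrp6 at 0.08 ± 0.12 (-0.20 to 0.36). Tcf7 gave -0.01 ± 0.16 (-0.37 to 0.34), Porcn 0.14 ± 0.13 (-0.16 to 0.44) and Wnt9a 0.15 ± 0.16 (-0.21 to 0.52). Thus a 2-fold difference in either direction lay outside the interval for Wnt9a, the highest ligand per kilobase, both co-receptors and both secretion genes. Sfrp1 gave -0.00 ± 0.22 (-0.50 to 0.49), Sfrp2 0.13 ± 0.36 (-0.68 to 0.95), and Axin2, the target readout, 0.10 ± 0.25 (-0.47 to 0.67). Lef1 gave -0.36 ± 0.22 (-0.85 to 0.13), Wnt11 -0.27 ± 0.20 (-0.74 to 0.19), Wnt5a -0.41 ± 0.26 (-0.99 to 0.18) and Fzd4 0.43 ± 0.22 (-0.07 to 0.93). With 1 library left out the estimates ran from -0.73 to -0.18 for Wnt5a, from 0.15 to 0.57 for Fzd4 and from -0.49 to -0.16 for Wnt11. With the muscle level as a covariate they were -0.19 for Wnt5a and 0.21 for Fzd4, and without WT replicate 3 and IL17KO replicate 3 they were -0.032 and 0.062, so the size of both rested on these libraries. Wnt4 had the widest interval, 1.11 ± 0.72 (-0.53 to 2.76), so that for this ligand neither direction was resolved.

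By role, 8 of 12 ligands had a higher and 4 a lower estimate (median log2 0.13), as did 4 and 8 receptors (median -0.01), 4 and 3 antagonists (median 0.01), and 1 and 4 of the R-spondin, Porcn and Wls genes (median -0.20). Tcf7 and Lef1 were estimated lower and Axin2 higher. None of these counts includes a call.

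**Figure D2:**
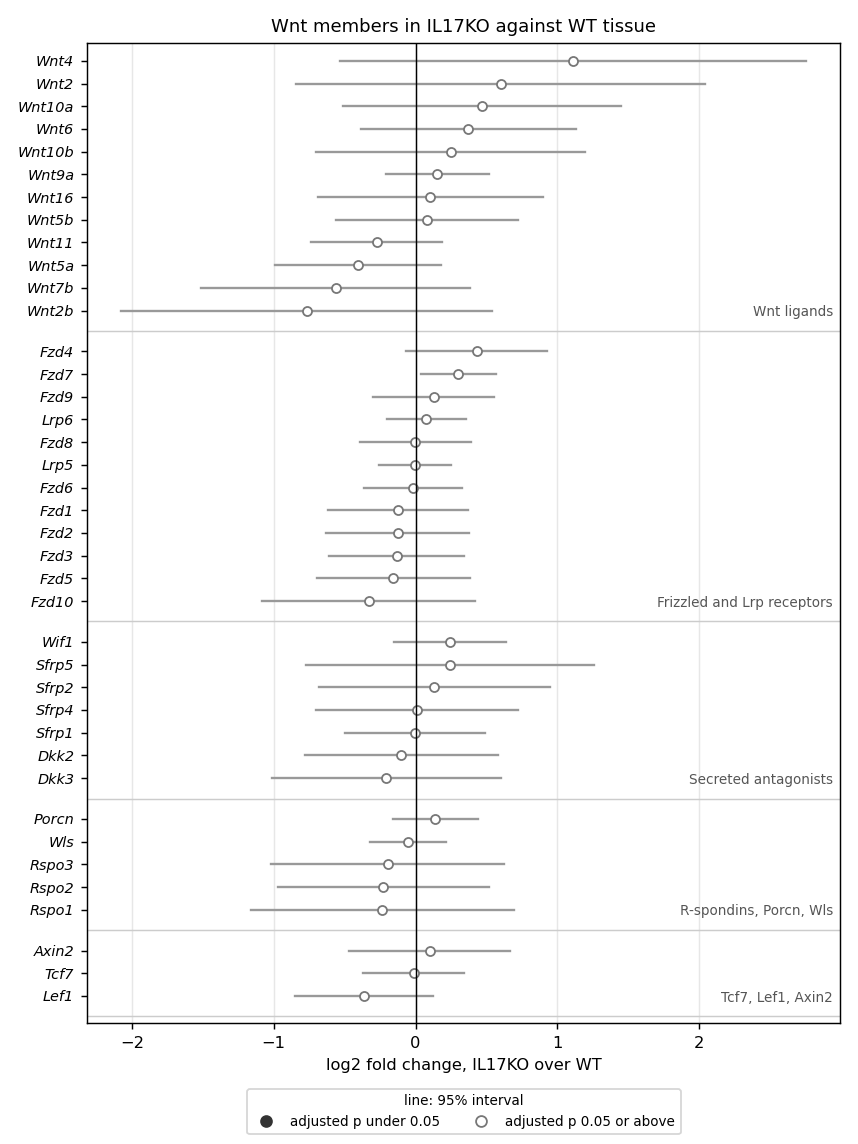
Log2 fold change of each tested member, IL17KO over WT, with its 95% interval, grouped by role. All 39 points are open because no adjusted p was under 0.05, and Fzd7 (0.30) is the one interval that excludes 0.

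Members were also read against the muscle content of the libraries. For each library the mean log2 CPM of the 25 muscle fibre genes, centred on the 7 libraries, gave a muscle level of 0.27, -0.51 and 1.24 in IL17KO replicates 1 to 3 and of -0.03, 0.14, -1.48 and 0.36 in WT replicates 1 to 4. The slope of each gene on this level was fitted in edgeR with genotype in the model, so that it compares libraries of equal genotype. It passed an adjusted p of 0.05 for 10 of 39 members, against 23.4% of all genes, a share near that background, so that the count says nothing particular about Wnt genes. At an unadjusted p under 0.05 there were 14, against 36.5% of all genes. There were 3 called members with a positive slope, against 13.0% of all genes, and 7 with a negative one, against 10.4%.

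Wnt4, Sfrp5 and Fzd4 were higher where muscle RNA was higher. Wnt4 rose by 1.52 ± 0.18 log2 units per log2 unit of muscle level (SE; 95% interval 1.12 to 1.93; adjusted p = 0.00033). Its 7 values followed the muscle level in order but for 1 pair of neighbours: IL17KO replicate 1, with 3.97 CPM, had a higher muscle level than WT replicate 2, with 4.65 CPM. Sfrp5, a frizzled-related protein also known as an adipokine, had 3.76, 2.19 and 4.88 CPM in IL17KO, against 3.72, 2.92, 1.01 and 4.45 CPM in WT. Its slope was 0.87 ± 0.16 (adjusted p = 0.0030). Fzd4 had a slope of 0.35 ± 0.08 (adjusted p = 0.0129).

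Wnt5a, Dkk3, Fzd2, Fzd1, Fzd5, Wnt2b and Wnt7b were lower where muscle RNA was higher. Dkk3 fell by 0.64 ± 0.07 log2 units per unit of muscle level (adjusted p = 0.00014). Slopes were -0.45 ± 0.08 for Wnt5a (adjusted p = 0.0035), -0.38 ± 0.07 for Fzd2 (adjusted p = 0.0038) and -0.36 ± 0.09 for Fzd5 (adjusted p = 0.0182), all in edgeR. Fzd5 had 16.2, 23.4 and 14.1 CPM in IL17KO, against 18.8, 14.1, 26.5 and 20.4 CPM in WT. Fzd1, seventh of the 7 by size, had a slope of -0.33 ± 0.08 (adjusted p = 0.0174) and 27.4, 38.2 and 26.7 CPM in IL17KO, against 24.8, 33.3, 45.9 and 30.1 CPM in WT. For these receptors WT replicate 3, the library with the least muscle RNA, was the highest of the 7.

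The other 2 are ligands of low abundance. Wnt2b had 0.450, 1.254 and 0.444 CPM in IL17KO, against 0.690, 0.594, 2.45 and 1.19 CPM in WT, with a slope of -0.85 ± 0.23 (adjusted p = 0.0199). Wnt7b had 0.900, 1.10 and 0.799 CPM in IL17KO, against 1.29, 1.08, 2.49 and 0.705 CPM in WT, with a slope of -0.63 ± 0.18 (adjusted p = 0.0296). In both, WT replicate 3 held the highest value.

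**Figure D3:**
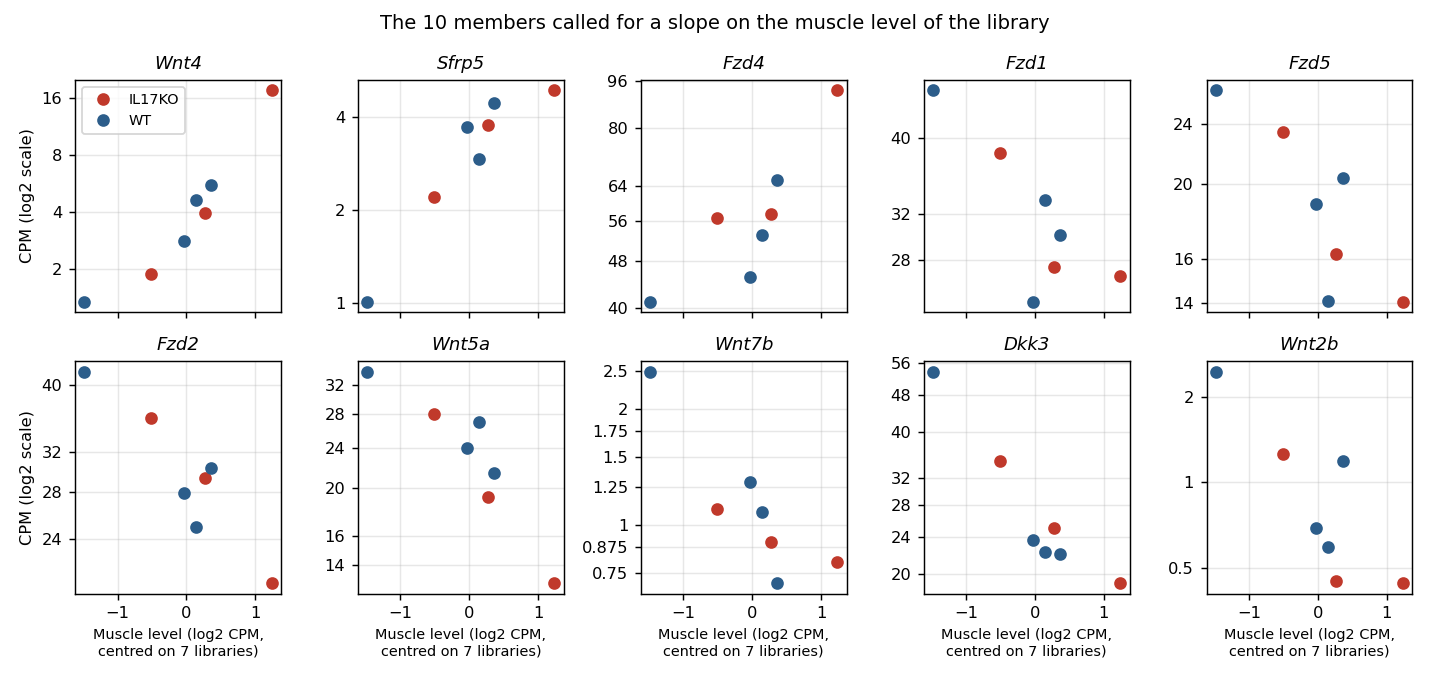
CPM (log2 axis) of the 10 members called for the slope against the muscle level of each library, IL17KO in red and WT in blue. Wnt4, Sfrp5 and Fzd4 climb to IL17KO replicate 3 on the right, and the other 7 are highest in WT replicate 3 on the left.

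The slopes of Dkk3, Wnt4, Sfrp5, Wnt5a and Fzd2 passed the threshold in each of 7 fits that left out 1 library. The other 5 did not: Fzd4 lost its call without IL17KO replicate 2 or 3, Fzd1 without IL17KO replicate 2 or WT replicate 3, Fzd5 and Wnt2b without IL17KO replicate 2 or 3 or WT replicate 3, and Wnt7b without IL17KO replicate 2 or WT replicate 3 or 4. The Wnt7b slope was -0.35 without WT replicate 3. With both WT replicate 3 and IL17KO replicate 3 left out, edgeR called 0 of 15561 genes, 6.99% of them had an unadjusted p under 0.05, and 4 members did. All 10 slopes kept their direction in that fit, from -0.94 for Wnt2b to 1.59 for Wnt4. No call was thus left without these 2 libraries.

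Marker genes of other cell types were called along the same axis in unequal numbers, against 13.0% of all genes called higher and 10.4% called lower. Of the tested markers, 6 of 14 fibroblast genes were called lower with the muscle level and 2 higher (median slope -0.24), 6 of 9 pericyte and smooth muscle genes lower and 1 higher (median -0.27), 2 of 11 macrophage genes lower (median -0.24) and 3 of 6 neutrophil genes lower (median -0.66). Of the osteoblast and osteocyte genes 1 of 8 was called lower (median -0.21), and of the cartilage genes 2 of 9 (median -0.03). In the other direction, 1 of 5 adipocyte genes (median 0.21) and 1 of 3 epithelial genes (median 0.81) were called higher. All 7 Schwann cell genes had positive slopes, 5 of them called (median 0.54). Of the satellite cell genes 0 of 8 were called (median 0.11), and of the endothelial genes 0 of 10 (median -0.05). The part of any of these cell types in the slopes of the Wnt members was not tested.

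Members without a call included Wnt9a, the highest ligand per kilobase, both co-receptors and the secretion gene Wls. Slopes were -0.15 ± 0.09 for Wnt9a (adjusted p = 0.247), -0.01 ± 0.07 for Lrp5, -0.03 ± 0.07 for Lrp6 and -0.12 ± 0.06 for Wls. Axin2 came close to the threshold with 0.35 ± 0.12 (adjusted p = 0.0562). Sfrp1 and Sfrp2 had -0.27 (adjusted p = 0.0851) and -0.38 ± 0.23 (adjusted p = 0.300), all from edgeR.

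**Figure D4:**
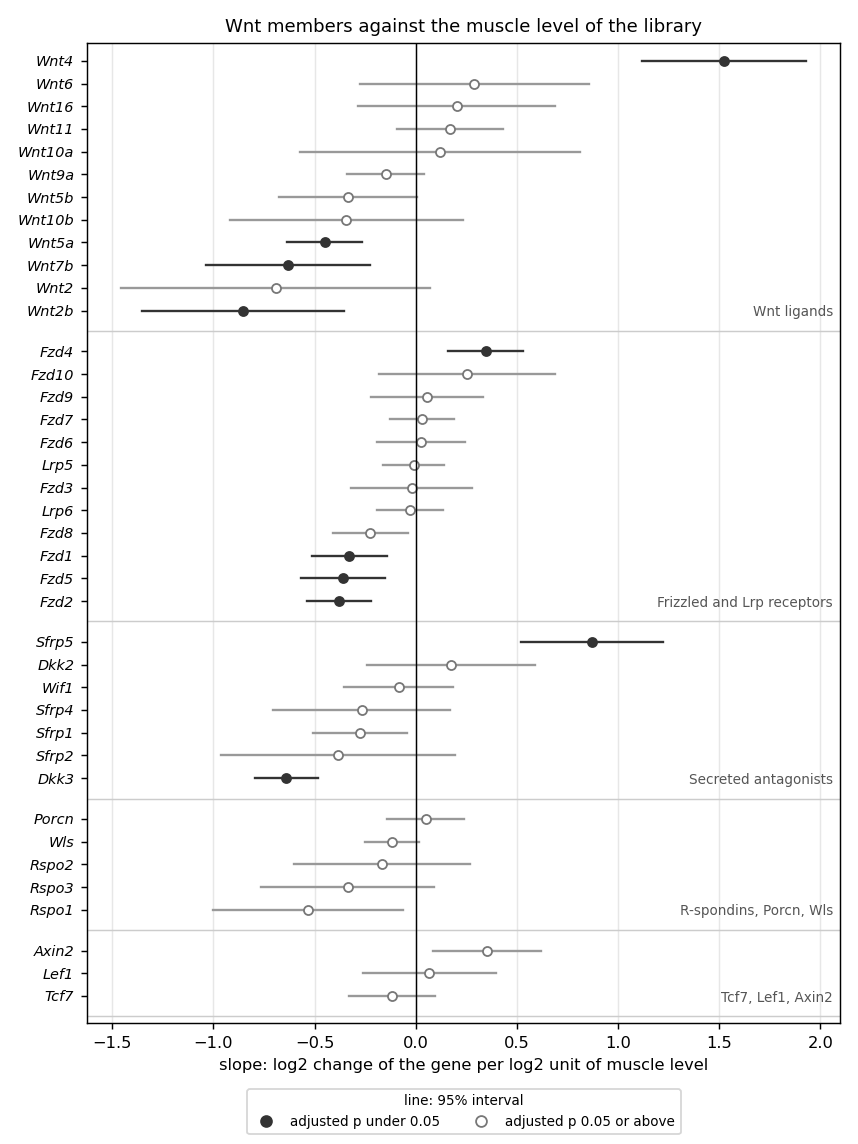
Slope of each tested member on the muscle level (log2 change per log2 unit) with its 95% interval, grouped by role, filled where the adjusted p was under 0.05. Wnt4 (1.52) lies farthest to the right, and Wnt2b (-0.85), Dkk3 (-0.64) and Wnt7b (-0.63) farthest to the left among the filled points.

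The promoters of the 3 members that were higher with muscle RNA are shown because they moved together. Each is the 250 bases before the RefSeq start of the gene (GRCm38.p6), 5′ to 3′ on the gene's strand, with the E-box CANNTG, the general binding motif of myogenic factors such as MyoD, in capitals. They lie at chr4:137277385-137277634 on the plus strand for Wnt4, chr19:42202253-42202502 on the minus strand for Sfrp5 and chr7:89404116-89404365 on the plus strand for Fzd4.
Wnt4: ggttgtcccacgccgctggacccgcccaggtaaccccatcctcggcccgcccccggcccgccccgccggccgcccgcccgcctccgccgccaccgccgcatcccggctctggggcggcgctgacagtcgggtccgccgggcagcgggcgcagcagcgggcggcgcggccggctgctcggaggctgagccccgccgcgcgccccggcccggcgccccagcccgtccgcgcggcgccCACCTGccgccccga
Sfrp5: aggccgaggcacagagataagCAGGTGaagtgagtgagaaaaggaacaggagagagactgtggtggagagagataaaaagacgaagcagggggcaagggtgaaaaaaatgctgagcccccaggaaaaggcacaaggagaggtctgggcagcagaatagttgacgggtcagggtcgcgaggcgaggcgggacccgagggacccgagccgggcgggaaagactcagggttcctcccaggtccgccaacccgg
Fzd4: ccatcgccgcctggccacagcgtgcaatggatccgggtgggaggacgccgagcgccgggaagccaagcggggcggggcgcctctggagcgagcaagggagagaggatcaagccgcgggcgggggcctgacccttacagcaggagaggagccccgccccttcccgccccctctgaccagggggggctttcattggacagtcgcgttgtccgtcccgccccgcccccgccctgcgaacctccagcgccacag
Wnt4 and Sfrp5 held 1 E-box each and Fzd4 held 0, while 66.2% of 32851 promoters of the same length in the table held at least 1. The MyoD-preferred form CAGCTG (13.0% of promoters), the MEF2 motif (3.20%) and the TCF/LEF motifs CTTTGAT (3.21%) and CTTTGTT (5.03%) were searched on both strands, CAGCTG being 1 form of CANNTG, and none was found in the 3 windows. Of the members that were lower with muscle RNA, Fzd1, Fzd5 and Wnt2b were also in the table, with 1 E-box each and 0 of the other motifs. No match says only that these letters are not in this window.

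Beyond the 50, 4 lists of Wnt pathway genes were read from the same fit, and 0 of their 68 tested genes (of 78) passed the threshold between IL17KO and WT. At an unadjusted p under 0.05 there was 1 in edgeR, 1 in DESeq2 and 4 in limma voom, against 3.04%, 3.00% and 9.36% of all genes in these tools. Surface modulators had 6 higher and 11 lower estimates of 17 tested (median log2 -0.04). Gpc3, a glypican that binds Wnt at the cell surface, averaged 12.2 ± 1.36 in IL17KO and 15.95 ± 2.43 CPM in WT. Its log2 difference was -0.38 ± 0.15, with an unadjusted p of 0.0342 in edgeR. The next smallest p-values were those of Lgr6, Gpc4 and Ptk7, with log2 differences of -0.49, -0.15 and -0.24. Of the 27 cytoplasmic and nuclear genes of the beta-catenin branch, 16 were estimated higher and 11 lower (median 0.03), led by Gsk3a, a kinase of the destruction complex, at 109.6 ± 7.01 in IL17KO and 92.5 ± 7.28 CPM in WT (0.24 ± 0.11), then Axin1, Tle4 and Dvl1 at -0.13, 0.20 and 0.23. Planar polarity and calcium genes had 7 higher and 8 lower of 15 (median -0.03), led by Prickle1 at 14.2 ± 0.854 in IL17KO and 16.7 ± 0.738 CPM in WT (-0.24 ± 0.11), then Daam1, Celsr2 and Camk2a at 0.19, 0.64 and 0.36. Other target genes of beta-catenin had 5 higher and 7 lower of 12 tested (of 19 listed; median -0.12), led by Ccn4 at 106.4 ± 33.5 in IL17KO and 135.6 ± 37.7 CPM in WT (-0.35 ± 0.26), then Nkd1, Ccn5 and Bambi at -0.21, -0.33 and 0.19.

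Along the muscle level 22 of these 68 genes were called, against 23.4% of all genes. Of these, 8 were higher, against 13.0% of all genes, and 14 lower, against 10.4%. Ror2 and Ptk7, co-receptors of the Wnt5a branch, had slopes of -0.47 and -0.45 and were called, whereas Ror1 and Ryk, which also bind Wnt5a, had slopes of 0.018 and -0.074 and were not. Frzb, another frizzled-related antagonist, had a slope of 0.82. Among targets, Ccn4, Ccnd1, Myc and Nkd2 were lower with muscle RNA (slopes -0.48, -0.39, -0.34 and -0.32) and Tnfrsf19 was higher (0.49), while Axin2 stayed short of the threshold. These genes were named after their slopes were seen.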

How the data were processed

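Raw read counts and normalized signal per gene were deposited for the 7 libraries. The submitters' processing notes name TopHat, HTSeq, DESeq2, cutadapt, bcl2fastq and FastQC with build GRCm39, without versions. Dividing the counts by a single factor for each library returned the deposited normalized signal, which was not used further. Columns were assigned by the library names in the labels; 2 column names also equal another sample's title, so replicate numbers, but no groups, depend on this. The test of the counts was that of edgeR 4.0.16 under R 4.3.3 (quasi-likelihood, robust, TMM, filterByExpr, Benjamini-Hochberg adjustment over all 15399 genes, two-sided). Each SE was taken from the estimate and its F statistic, and each 95% interval from the matching t distribution. Levels are CPM on TMM-scaled totals; lengths are union exons of GENCODE M21 (GRCm38), an older build. The 3-count floor covers counting error only. Within groups, library pairs had a chi-square averaging 23.1 to 239 per gene, well above counting noise.

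The members and lists were chosen with earlier results of these data known. Members named with values are the 3 highest per kilobase of each role, those at an unadjusted p under 0.05 for genotype, and the 6 largest called muscle slopes in either direction; of each pathway list, the 4 smallest p. Fzd1, Lrp5 and Wif1 were added after their values were seen. The fits were tried on simulated counts. For the genotype test these held no variation in muscle content, so that test was easier than the real one. Alternatives were DESeq2 1.42.0, limma 3.58.1 voom with quality weights, RLE scaling, other filters, lengths and muscle lists, a replicate block, the muscle level as a covariate, and libraries left out.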

Additional observations from a re-analysis of the deposited data

Results flagged for a closer look

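Dkk3, Wnt9a and Wnt5b each had 1 WT library far from the other 3. In every case it was WT replicate 3, the library with the least muscle RNA, with 53.7 CPM for Dkk3, 18.7 CPM for Wnt9a and 2.64 CPM for Wnt5b. The other WT libraries held 22.1 to 23.6 CPM of Dkk3, 13.7 CPM of Wnt9a in each, and 1.35 to 1.43 CPM of Wnt5b. IL17KO libraries held 19.1 to 34.8 CPM of Dkk3, 14.0 to 18.1 CPM of Wnt9a and 1.73 to 1.88 CPM of Wnt5b. These were 3 of 39 members examined, and chance alone sets a library apart in about 1 of 20 such groups. The share of all genes set apart in this way was not counted, so the 3 say nothing particular about Wnt genes. The 3 values share 1 library and are not independent.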

How the results depend on the processing

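No alternative called a Wnt member or pathway gene between IL17KO and WT. Over all genes the 24 calls became 42 with no filter, 58 in DESeq2, 65 in limma voom and 8 to 21 with 1 library left out. No label says that replicate numbers pair the samples. The numbers are those of the sample titles, and the library names are in part numbered differently. Same-numbered libraries correlated at 0.143, -0.298 and -0.560 in their deviations from the group means, and not every library correlated best with its own number. Muscle content also differed between these libraries, so the correlations can neither show nor exclude a pairing. The fit with the replicate number as a block gave 2 calls. For the muscle slope the 10 member calls became 0 without WT replicate 3 and IL17KO replicate 3 and 6 to 12 with 1 library left out, and the 3609 calls over all genes became 0 and 1456 to 3745. DESeq2 lost the slope call of Wnt7b but also gave 10 member calls, so it called another member that edgeR did not.

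Several genotype estimates changed sign, none of them called. The values below cover only the members followed through every alternative, so further members may have changed sign. With the muscle level as a covariate, Rspo1, Wnt16, Fzd8 and Lrp5 also did, at 0.085, -0.035, 0.13 and 0.0025. With the muscle level as a covariate log2 differences were 0.082 for Fzd2, 0.14 for Sfrp1, 0.23 for Dkk3, 0.022 for Wls, 0.0017 for Rspo3, 0.047 for Tcf7, -0.11 for Axin2, -0.063 for Wnt4, -0.19 for Sfrp5, 0.040 for Fzd5 and 0.076 for Fzd1. Without WT replicate 3 and IL17KO replicate 3 they were 0.23 for Fzd2, 0.22 for Sfrp1, 0.40 for Dkk3, 0.032 for Wls, 0.099 for Rspo3, 0.089 for Tcf7, -0.21 for Axin2, -0.57 for Wnt4, -0.33 for Sfrp5, 0.018 for Wnt2b, 0.15 for Fzd5 and 0.16 for Fzd1. In limma voom, where IL17KO replicate 1 weighed most, they were 0.015 for Fzd2, 0.0013 for Sfrp1, 0.042 for Dkk3 and 0.032 for Tcf7. With no filter the log2 difference was 0.0047 for Sfrp1. With 1 library left out the range was -0.10 to 0.29 for Axin2, -0.46 to 0.21 for Dkk3, -0.31 to 0.054 for Fzd1, -0.32 to 0.052 for Fzd2, -0.43 to 0.043 for Rspo3, -0.21 to 0.13 for Sfrp1, -0.13 to 0.33 for Sfrp2, -0.055 to 0.50 for Sfrp5, -0.10 to 0.085 for Tcf7, -0.10 to 0.0048 for Wls and -0.31 to 1.58 for Wnt4. The cause was not tested. Depth limits the 11 members below the filter.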
